A study of Homo sapiens with 4 samples.

Results

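The subject is 9 genes that mark neuroendocrine cells, measured in NCI-H520, an established cell line of lung squamous cell carcinoma. They are the granins CHGA, CHGB and SCG2, the vesicle protein gene SYP, the enzyme genes ENO2 and UCHL1, the adhesion molecule gene NCAM1, and the transcription factor genes INSM1 and NEUROD1. They were picked by gene name from a list of neuroendocrine genes, and all 9 are among the 28277 genes of the deposited count table. RNA sequencing covered 2 libraries from cells given 10 µM Hx1R8 and 2 libraries from cells given ultrapure water (Vehicle), each for 12 h. All 4 libraries come from cells labelled wild type, and the labels do not describe the composition of Hx1R8. The series as a whole concerns SOX2 self-association and drug resistance. The labels do not tie replicates to separate cultures, and the spread that enters each p-value may therefore be technical.

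Neuroendocrine cells store peptide hormones in dense core granules, whose matrix is built from granins, and carry small clear vesicles with synaptophysin in their membrane. Pathologists use products of these genes to tell small cell and other neuroendocrine lung cancers from squamous carcinoma. NEUROD1 and INSM1 are transcription factors that drive this programme, and REST is a repressor that keeps neuronal genes silent in most other tissues.

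In this squamous line the 9 genes spanned very different levels, and 7 of them averaged at least 1 TPM (8 with CHGA measured on its chromosomal exon bases alone). TPM, a gene's share of all transcripts on a fixed scale, was computed from the counts and the exon length listed for each gene. It allows levels of different genes to be compared. Most genes with reads reached 1 TPM, since SNAP25, at a mean of 1.18 TPM, ranked 13772 among the 20980 with reads. UCHL1 and CHGB stood near the level of SOX2, a lineage factor of squamous lung cancer. CHGA, in contrast, was near 1 TPM, at 0.578 with its listed length and 1.12 with its chromosomal bases. NEUROD1 had 1 read over all 4 libraries. None of the 8 that had enough reads for a test passed it between Hx1R8 and Vehicle.

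**Figure D1:**
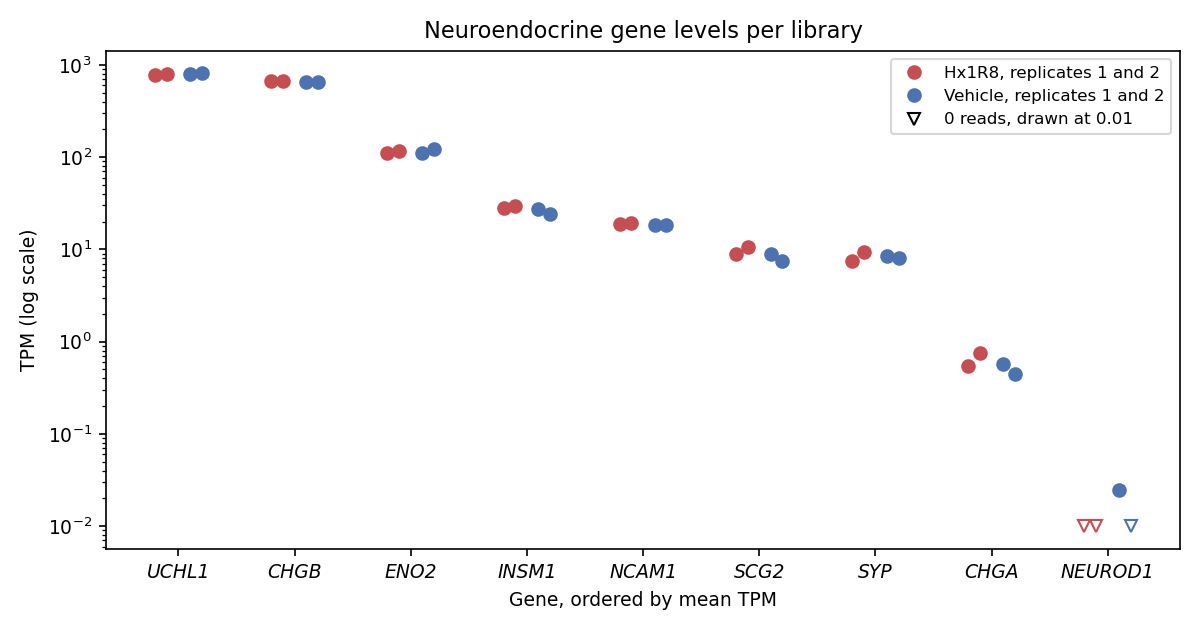
TPM of each of the 9 genes (log axis) in the 2 Hx1R8 libraries (left, red) and the 2 Vehicle libraries (right, blue), with libraries at 0 reads drawn as open triangles at 0.01. The genes fall from UCHL1 at 781 to 810 TPM to CHGA at 0.447 to 0.749 TPM and NEUROD1, and within each gene the 4 libraries lie close together.

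Of the 2 cytosolic enzymes, UCHL1 was the most abundant of the 9 genes. UCHL1 encodes a neuronal ubiquitin hydrolase (chromosome 4, 41256928 to 41268455, plus strand) and was at 781 and 801 TPM in Hx1R8, against 803 and 810 TPM in Vehicle. Both Hx1R8 libraries lay below both Vehicle libraries, by a small margin. It ranked 146 by mean TPM among the 20980 genes with reads. Its relatives UCHL3 and UCHL5 were lower, UCHL3 at 64.2 ± 2.24 TPM in Hx1R8 and 55.7 ± 3.91 TPM in Vehicle, and UCHL5 at 35.1 ± 0.0935 TPM in Hx1R8 and 34.1 ± 2.40 TPM in Vehicle (SD, n = 2 each). UCHL1 held 88.8% ± 0.394 of the TPM of these 3 genes in Hx1R8 and 90.0% ± 0.684 in Vehicle (SD, n = 2 each). Of the 5 relatives of the 9 genes that were tested none passed. UCHL3 alone of these 5 was under an unadjusted p of 0.05 (log2 0.19, SE 0.08, unadjusted p = 0.0276), against 3.39% of all tested genes.

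ENO2, the neuron-specific enolase of glycolysis (chromosome 12, 6914580 to 6923697, plus strand), had 110 and 115 TPM in Hx1R8, against 110 and 121 TPM in Vehicle. The groups overlapped, with Vehicle replicate 2 the highest. Unlike UCHL1 in its family, ENO2 was a small part of the enolases. ENO1, the enolase of most tissues, was at 2123 ± 41.0 TPM in Hx1R8 and 2113 ± 110 TPM in Vehicle, and ENO3, the muscle form, at 26.7 ± 2.22 TPM in Hx1R8 and 24.9 ± 0.601 TPM in Vehicle (SD, n = 2 each). ENO2 made up 4.99% ± 0.0501 of the summed enolase TPM in Hx1R8 and 5.14% ± 0.0747 in Vehicle (SD, n = 2 each).

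The 3 granins differed widely from one another. CHGB encodes chromogranin B, a granule matrix protein (chromosome 20, 5911510 to 5925353, plus strand), and was at 664 and 667 TPM in Hx1R8, against 656 and 657 TPM in Vehicle. It ranked 189 by mean TPM. SCG2, secretogranin II and a precursor of secretoneurin (chromosome 2, 223596940 to 223602361, minus strand), had 8.88 and 10.7 TPM in Hx1R8, against 8.83 and 7.51 TPM in Vehicle. CHGA encodes chromogranin A, the granin most used as a serum and tissue marker (chromosome 14, 92923150 to 92935285, plus strand). It had 0.540 and 0.749 TPM in Hx1R8, against 0.577 and 0.447 TPM in Vehicle, so its groups overlapped.

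CHGA rested on few reads, 12 and 20 in the Hx1R8 libraries and 13 and 10 in the Vehicle libraries. The exact 95% Poisson intervals, which cover counting error only, ran from 21.9 to 45.2 reads around the 32 reads of both Hx1R8 libraries and from 14.6 to 34.5 around the 23 reads of both Vehicle libraries. The table lists the exons of CHGA on chromosome 14 and again on an alternate contig of the same region, so the listed length of 3970 bases is more than the 1985 bases on the chromosome. With the chromosomal bases alone, an alternative added after the data were seen, CHGA was at 1.25 ± 0.286 TPM in Hx1R8 and 0.994 ± 0.179 TPM in Vehicle (SD, n = 2 each). Whether that second copy takes reads from CHGA was not tested. Of 26 other genes listed on both sequences, 15 had enough reads to be tested for a difference between the groups, as did 14482 of the 28277 genes in the table. Of the 26, 8 had no reads, the median was 118.5 reads over the 4 libraries, and the highest was DDX24 with 17841.

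Level for level, CHGB exceeded CHGA by 1229-fold and 891-fold in the Hx1R8 libraries, and by 1138-fold and 1470-fold in the Vehicle libraries. On the chromosomal bases of CHGA the ratios were 614 and 445 in Hx1R8 and 569 and 735 in Vehicle. Among 7 granin genes CHGB held 94.5% ± 0.309 of the summed TPM in Hx1R8 and 95.3% ± 0.0397 in Vehicle (SD, n = 2 each). PCSK1N, which encodes the granin-like proSAAS, was the next most abundant at 26.7 ± 0.553 TPM in Hx1R8 and 22.3 ± 1.09 TPM in Vehicle. SCG3 was at 0.912 ± 0.297 TPM in Hx1R8 and 0.694 ± 0.223 TPM in Vehicle (SD, n = 2 each). VGF had 8 reads in Hx1R8 and 11 in Vehicle. SCG5 had 5 reads in Hx1R8 and 4 in Vehicle, and most of its listed exon bases are shared with ARHGAP11A-SCG5, so its level is uncertain.

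The promoters of UCHL1 and CHGA are shown because these were the most abundant of the 9 genes and the scarcest one with reads in every library. They are the 150 bases before the RefSeq start on GRCh38.p14, UCHL1 at chr4:41256778-41256927 and CHGA at chr14:92923000-92923149, both on the plus strand, read 5′ to 3′. Capitals mark the TATA box letters TATAAA (here on the minus strand) in UCHL1 and a cAMP response element (TGACGTCA) in CHGA. CHGA also holds tatataa, a similar stretch that the searched letters do not match and that is left unmarked.
UCHL1: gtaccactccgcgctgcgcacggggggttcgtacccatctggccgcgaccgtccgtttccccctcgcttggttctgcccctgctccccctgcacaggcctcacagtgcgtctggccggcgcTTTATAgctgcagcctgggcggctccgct
CHGA: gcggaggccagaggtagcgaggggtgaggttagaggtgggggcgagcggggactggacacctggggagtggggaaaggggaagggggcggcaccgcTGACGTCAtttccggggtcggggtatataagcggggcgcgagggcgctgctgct

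Motifs were searched on both strands in the 250 bases before the start, a window found for 5 of the 9 genes (CHGA, SYP, ENO2, UCHL1 and NEUROD1). The cAMP response element was in CHGA alone among these 5, and in 1.65% of 35116 windows of all genes. TATAAA was in UCHL1 alone among the 5, and in 10.7% of all windows. Only these exact letters were searched, so the similar tatataa of CHGA and NEUROD1 was not counted. The GC box GGGCGG was in all 5 windows and in 42.6% of all windows. Neither TCAGCACC nor GGACAG, the letters searched for the left and right parts of the REST element RE1, was in any of the 5, against 1.32% and 17.2% of all windows. A match or its absence describes these letters in these windows and no binding.

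Of the surface and vesicle proteins, NCAM1 encodes the adhesion molecule CD56 (chromosome 11, 112961420 to 113278436, plus strand). It was at 18.8 and 19.2 TPM in Hx1R8, against 18.3 and 18.4 TPM in Vehicle. Its relative NCAM2 had 10 reads in Hx1R8 and 6 in Vehicle. SYP encodes synaptophysin, an integral protein of small vesicles (chromosome X, 49187812 to 49200202, minus strand). It was at 7.56 and 9.28 TPM in Hx1R8, against 8.40 and 8.09 TPM in Vehicle, the Hx1R8 libraries lying on either side of the Vehicle libraries. Its widely expressed relative SYPL1 was at 85.4 ± 5.20 TPM in Hx1R8 and 90.1 ± 6.72 TPM in Vehicle (SD, n = 2 each), while SYPL2 had 15 reads in Hx1R8 and 12 in Vehicle, and SYNPR had 5 in Hx1R8 and 1 in Vehicle. Genes on the opposite strand overlap both, and without a stated strand setting their reads cannot be told apart. These neighbours held few reads, 1 for SYP-AS1, 8 for NCAM1-AS1 and 69 for LOC101928847 over the 4 libraries.

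Of the transcription factors, INSM1 was in the middle of the 9 genes and NEUROD1 at the low end. INSM1, a zinc finger factor of neuroendocrine differentiation (chromosome 20, 20368104 to 20370948, plus strand, a single exon), was at 27.8 and 29.9 TPM in Hx1R8, against 27.4 and 24.4 TPM in Vehicle. NEUROD1, a basic helix-loop-helix factor (chromosome 2, 181668295 to 181680665, minus strand), had 0 reads in both Hx1R8 libraries and 1 and 0 reads in the Vehicle libraries. A count of 0 allows up to 3 counts, which is 0.174 and 0.143 CPM (reads scaled to a fixed library total, with no division by length) in Hx1R8 replicates 1 and 2 and 0.173 CPM in Vehicle replicate 2. Both groups are under that floor, so no fold change is given, and NEUROD1 was the 1 gene of the 9 that the low-count filter left out. Its relatives NEUROD4 and NEUROD6 had 0 reads, and NEUROD2 had 2 and INSM2 1 over the 4 libraries.

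In order of mean TPM the genes were UCHL1, CHGB, ENO2, INSM1, NCAM1, SCG2, SYP, CHGA and NEUROD1. Neighbours in this order had separate ranges over the 4 libraries, except SCG2 and SYP, which overlapped. The order was the same when the length of the longest GENCODE principal transcript was used, an alternative added after the data were seen, though INSM1 (24.4 TPM) and NCAM1 (23.7 TPM) then came close. Counted as reads without regard to length, the order changed at 2 places. NCAM1 came before INSM1, at 51.3 ± 0.192 against 26.5 ± 1.11 CPM in Hx1R8 and 49.8 ± 0.330 against 24.0 ± 1.83 CPM in Vehicle (SD, n = 2 each). CHGB came before UCHL1, at 529 ± 2.76 against 282 ± 2.73 CPM in Hx1R8 and 526 ± 2.18 against 289 ± 2.55 CPM in Vehicle (SD, n = 2 each). In bulk RNA, a gene made by fewer cells and a gene made at less RNA per cell cannot be told apart.

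The comparison of Hx1R8 with Vehicle asks whether the neuroendocrine genes differ after 12 h of exposure. None of the 8 tested genes passed an adjusted p of 0.05 in edgeR's quasi-likelihood test, against 0.0207% of all 14482 tested genes. Those called over all genes were 2 higher (0.0138%) and 1 lower (0.00691%). None of the 8 was under an unadjusted p of 0.05 either, against 3.39% of all tested genes, and DESeq2 and limma-voom also called 0 of them. The number called over all genes depended on single libraries, being 41 higher and 38 lower without Vehicle replicate 1 and 13 higher and 18 lower without Vehicle replicate 2. Without Hx1R8 replicate 1 it was 2 higher and 5 lower, and without Hx1R8 replicate 2 it was 5 higher and 1 lower. None of the 8 was among the genes called in any of these settings.

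**Figure D2:**
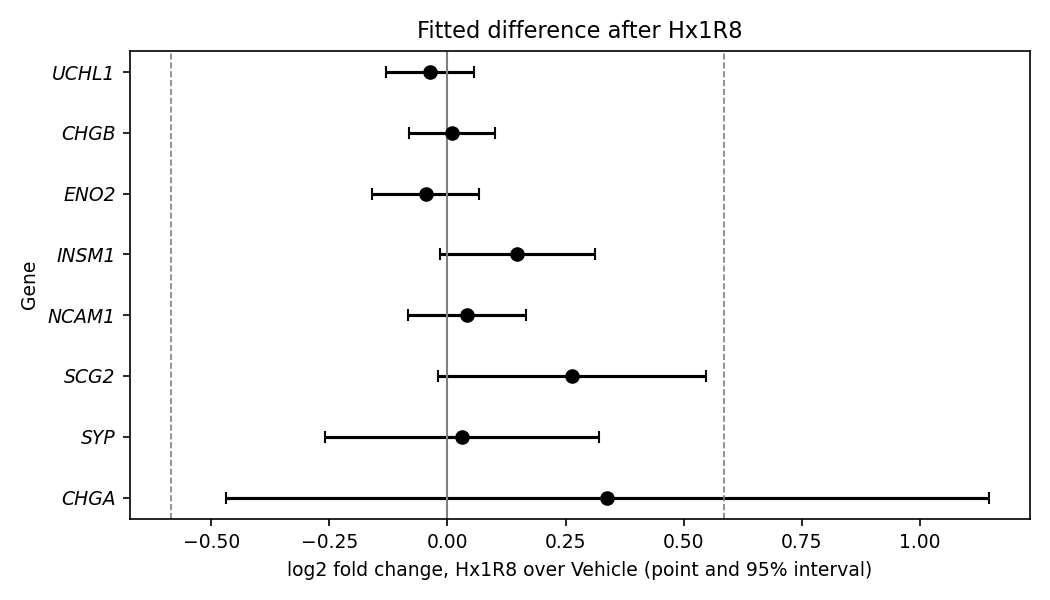
Log2 fold change of Hx1R8 over Vehicle for the 8 tested genes, with points for the fitted value and bars for the 95% interval; dashed lines mark 1.5-fold. Every interval includes 0, and that of CHGA alone reaches past 1.5-fold.

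The abundant genes were bounded most tightly. CHGB had a log2 fold change of 0.01 (SE 0.05), with a 95% interval of the fold from 0.945 to 1.07. UCHL1 was at -0.04 (SE 0.05), with an interval of the fold from 0.914 to 1.04. ENO2 was at -0.05 (SE 0.06) and NCAM1 at 0.04 (SE 0.06), so that for these 4 genes a difference of 1.2-fold lies outside the interval. For all 8 the adjusted p by edgeR was 0.9999.

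INSM1 and SCG2 had the smallest unadjusted p values of the 8. INSM1 had a log2 fold change of 0.15 (SE 0.08, unadjusted p = 0.0747), from 443 and 572 reads in Hx1R8 and 442 and 392 reads in Vehicle. SCG2 was at 0.26 (SE 0.14, unadjusted p = 0.0671), from 121 and 176 reads in Hx1R8 and 122 and 103 reads in Vehicle. For INSM1 the fold was bounded between 0.989 and 1.24, and for SCG2 between 0.987 and 1.46 (95% intervals). For each of them Hx1R8 replicate 1 lay close to Vehicle replicate 1, at 25.7 against 25.3 CPM for INSM1 and 7.03 against 6.97 CPM for SCG2. The highest library was Hx1R8 replicate 2 and the lowest Vehicle replicate 2 for INSM1, SCG2 and CHGA alike. This shared order was picked out after the values were seen, and its share over all genes was not counted.

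SYP was at 0.03 (SE 0.14), from 103 and 152 reads in Hx1R8 and 116 and 111 reads in Vehicle, with an interval of the fold from 0.836 to 1.25. Its sign turned without Hx1R8 replicate 2 (-0.13), as did that of ENO2 without Vehicle replicate 2 (0.029). CHGA was at 0.34 (SE 0.40), with an interval of the fold from 0.723 to 2.21, so at this depth a 2-fold difference in CHGA lies inside the interval. Apart from CHGA, the other 7 genes had 95% intervals bounded by 1.5-fold on both sides, which held for 81.4% of all tested genes.

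The 2 groups did not overlap in 5 of the 8 genes, CHGB, INSM1, NCAM1 and SCG2 with both Hx1R8 libraries above and UCHL1 with both below, against 29.8% of all tested genes. For CHGB the gap was slight, since Hx1R8 replicate 2 and Vehicle replicate 2 were both at 527 CPM. The median log2 fold change of the 8 was 0.04, with 6 above 0 and 2 below, against a median of -0.0018 over all tested genes. These counts describe the 8 genes that passed the filter and were not tested as a set.

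**Figure D3:**
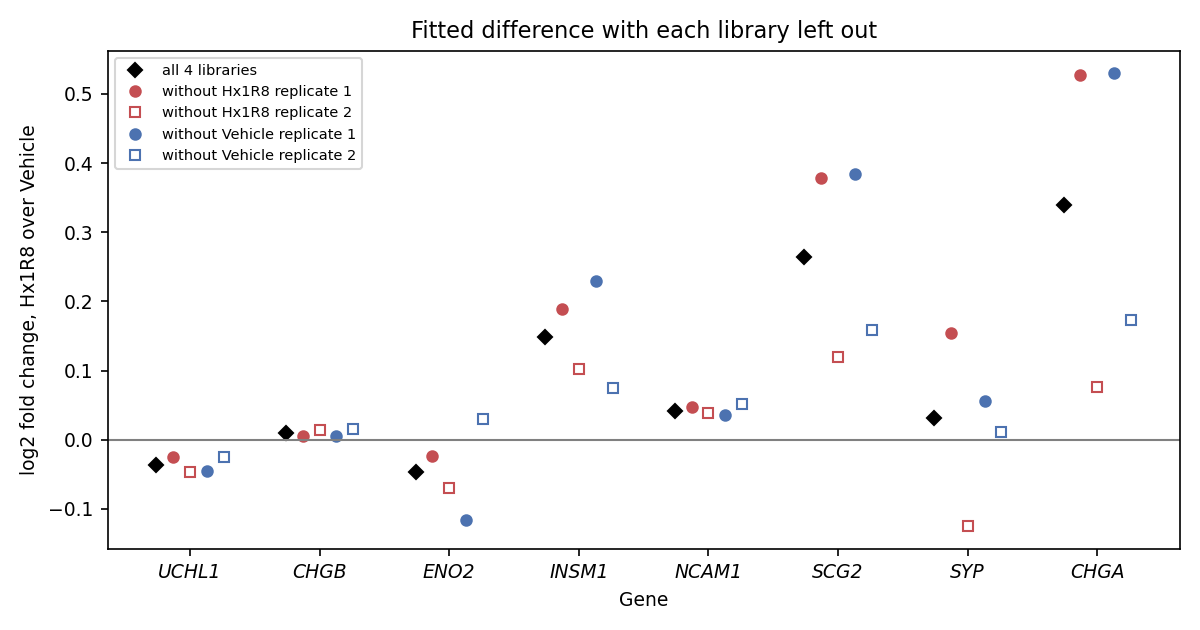
Log2 fold change of Hx1R8 over Vehicle for the 8 tested genes with all 4 libraries (black) and with each library left out (red, an Hx1R8 library; blue, a Vehicle library). UCHL1, CHGB and NCAM1 hardly move, whereas SCG2 runs from 0.12 to 0.38 and CHGA from 0.08 to 0.53.

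The genes around the granule programme were present in part. Of 16 genes for prohormone processing and dense core granules, 9 averaged at least 1 TPM, a level that most genes with reads also reached. CADPS, which primes granules for release, was at 59.9 ± 0.657 TPM in Hx1R8 and 59.5 ± 0.790 TPM in Vehicle. SYT7, a calcium sensor of release, was at 53.2 ± 0.227 TPM in Hx1R8 and 54.4 ± 3.47 TPM in Vehicle (SD, n = 2 each). CPE, the carboxypeptidase that trims prohormones, was at 22.9 ± 0.264 TPM in Hx1R8 and 21.5 ± 0.135 TPM in Vehicle, and CTSL, a protease, at 44.2 ± 0.426 TPM in Hx1R8 and 46.2 ± 2.57 TPM in Vehicle (SD, n = 2 each). The prohormone convertase genes were near 0, PCSK1 with 2 reads in Hx1R8 and 2 in Vehicle and PCSK2 with 0 in Hx1R8 and 1 in Vehicle. PTPRN, a granule membrane protein, had 1 read in each group, and SLC18A1 had 0 reads. None of the 10 tested genes of this list passed, with RAB3A at -0.20 (SE 0.12, unadjusted p = 0.119) and a list median of -0.02.

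Of 16 small vesicle and fusion genes, 12 averaged at least 1 TPM, a level that most genes with reads also reached. CPLX2, a clamp on vesicle fusion, was at 397 ± 4.53 TPM in Hx1R8 and 400 ± 25.6 TPM in Vehicle (SD, n = 2 each), well above SYP. SYT1, the fast calcium sensor, was at 117 ± 2.77 TPM in Hx1R8 and 114 ± 5.59 TPM in Vehicle, and SV2A at 111 ± 0.360 TPM in Hx1R8 and 113 ± 4.33 TPM in Vehicle (SD, n = 2 each). SNAP25, the neuronal membrane SNARE, was scarce, with 24 and 29 reads in Hx1R8 and 18 and 15 reads in Vehicle (log2 0.55, SE 0.32, unadjusted p = 0.0947). None of the 14 tested genes passed, and the list median was 0.0038.

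Among 16 other lineage factors 4 averaged at least 1 TPM. POU2F3, the tuft cell factor, had 1 read in each group. PROX1 was at 63.6 ± 1.01 TPM in Hx1R8 and 63.2 ± 1.84 TPM in Vehicle, and ISL1 at 5.69 ± 0.405 TPM in Hx1R8 and 6.06 ± 0.0742 TPM in Vehicle (SD, n = 2 each). HES6, an inhibitor of HES1, had the smallest unadjusted p of the 4 tested, at 75.5 and 72.7 TPM in Hx1R8 and 85.2 and 83.1 TPM in Vehicle (log2 -0.20, SE 0.07, unadjusted p = 0.00827, adjusted p = 0.9999 by edgeR). None of the 4 passed, and the list median was -0.05.

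REST and its corepressors were all expressed, while SRRM4, the splicing factor that inactivates REST in neurons, had 0 reads in all 4 libraries. REST was at 24.3 and 24.3 TPM in Hx1R8, against 24.3 and 23.1 TPM in Vehicle (log2 0.03, SE 0.06). The demethylase gene KDM1A was at 459 ± 13.9 TPM in Hx1R8 and 450 ± 3.14 TPM in Vehicle, and HDAC1 at 199 ± 3.59 TPM in Hx1R8 and 192 ± 1.40 TPM in Vehicle (SD, n = 2 each). All 10 tested genes of this list were bounded within 1.5-fold, as were 81.4% of all tested genes. None of the 10 passed, and their median log2 fold change was 0.02.

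Further neuronal and neuroendocrine markers were mixed, with 13 of 24 at 1 TPM or more. The neurofilament gene NEFL was at 240 ± 2.15 TPM in Hx1R8 and 233 ± 2.48 TPM in Vehicle, and the neuronal tubulin gene TUBB3 at 146 ± 2.94 TPM in Hx1R8 and 143 ± 2.32 TPM in Vehicle (SD, n = 2 each). The secreted peptide genes GRP and CALCA and the neurofilament gene NEFM had 0 reads. DLL3, a Notch ligand of small cell lung cancer, had 19 and 34 reads in Hx1R8 and 30 and 17 reads in Vehicle. None of the 16 tested genes passed and 1 was under an unadjusted p of 0.05, against 3.39% of all tested genes. It was CHRNA3, a nicotinic receptor subunit with 64 reads in Hx1R8 and 89 in Vehicle (log2 -0.61, SE 0.24, unadjusted p = 0.0163). The median of this list was 0.02.

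**Figure D4:**
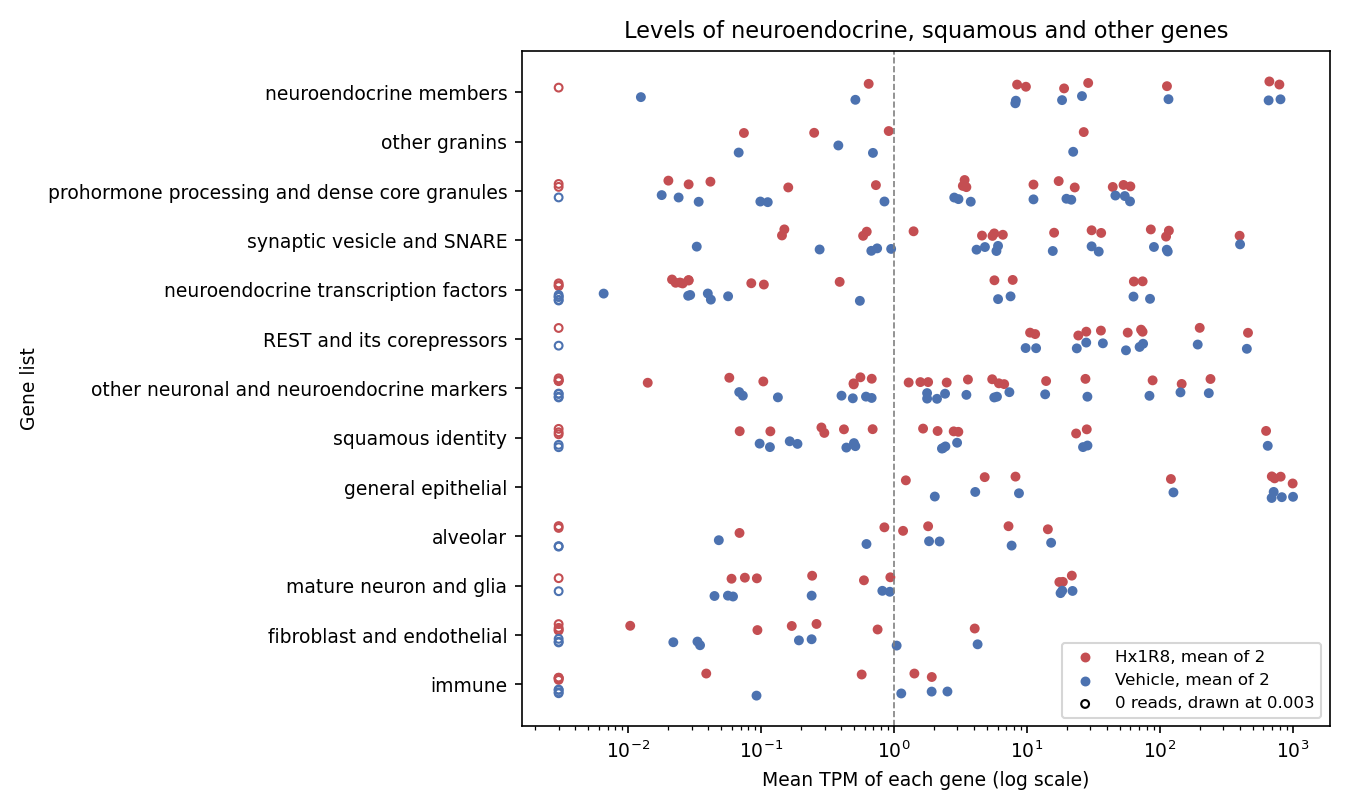
Mean TPM of each gene (log axis) by gene list, Hx1R8 in red above Vehicle in blue, with genes at 0 reads drawn open at 0.003 and a dashed line at 1 TPM. Of the 9 neuroendocrine genes 7 lie right of the line, and CHGA, drawn with its listed length, would lie at it with its chromosomal bases alone (1.12 TPM). Of the 16 squamous identity genes 9 lie left of it.

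The 16 markers of the labelled squamous identity differed widely in level. By mean TPM the highest were SOX2, TRIM29, KRT6A and CALML3, and 3 of the 16 averaged at least 10 TPM. SOX2 was at 640 and 617 TPM in Hx1R8, against 664 and 629 TPM in Vehicle, so CHGB stood at 0.988 to 1.08 of SOX2 and UCHL1 at 1.21 to 1.30 of SOX2 over the 4 libraries. TP63, another squamous lineage factor, had 10 and 15 reads in Hx1R8 and 7 and 8 reads in Vehicle. The basal keratin gene KRT5 was at 2.13 ± 0.749 TPM in Hx1R8 and 2.29 ± 0.458 TPM in Vehicle, and KRT6A at 23.4 ± 0.511 TPM in Hx1R8 and 26.4 ± 0.247 TPM in Vehicle (SD, n = 2 each). KRT14 and DSG3 had 0 reads. KRT14 resembles other keratin genes, and whether reads of it went unassigned was not tested. Of 16 squamous genes 7 averaged at least 1 TPM, as did all 8 general epithelial genes, with EPCAM at 996 ± 37.2 TPM in Hx1R8 and 1002 ± 15.4 TPM in Vehicle (SD, n = 2 each). None of the 10 tested squamous genes passed, and 3 were under an unadjusted p of 0.05, against 3.39% of all tested genes. These were DSC3 at log2 0.31 (SE 0.14), FAT2 at -0.57 (SE 0.26) and KRT6A at -0.18 (SE 0.09).

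Markers of other cell types varied by type. The summed TPM of 8 immune markers was 3.40 and 4.51 in Hx1R8, against 5.04 and 6.29 in Vehicle, with PTPRC, CD3E, MS4A1 and FCGR3A at 0 reads. That of 10 fibroblast and endothelial markers was 5.04 and 5.62 in Hx1R8, against 5.76 and 5.88 in Vehicle, with COL3A1 and PECAM1 at 0. The 8 alveolar markers summed to 23.9 and 27.1 TPM in Hx1R8 and 29.05 and 26.0 TPM in Vehicle, with SFTPC and NAPSA at 0. Of these 8, 4 averaged at least 1 TPM. The highest was NKX2-1, at 14.4 ± 1.56 TPM in Hx1R8 and 15.2 ± 2.14 TPM in Vehicle (SD, n = 2 each). LAMP3 was at 7.26 ± 0.383 TPM in Hx1R8 and 7.66 ± 0.234 TPM in Vehicle (SD, n = 2 each). AGER averaged 1.82 TPM with a listed length of 12824 bases, from 549 reads over the 4 libraries. The 10 markers of mature neurons and glia summed to 59.3 and 60.4 TPM in Hx1R8, against 59.9 and 60.9 TPM in Vehicle, with GAD2 at 0 reads. Of these 10, MBP, MAP2 and GAD1 averaged at least 10 TPM, near the level of NCAM1, and the other 7 were under 1 TPM with their listed lengths. Among those 7, MAPT had 452 reads over the 4 libraries and averaged 0.934 TPM. Its exons are listed on both strands with a length of 20442 bases, and its level with another length is not given. The 9 neuroendocrine genes summed to 1619 and 1653 TPM in Hx1R8, against 1634 and 1647 TPM in Vehicle, most of it from UCHL1 and CHGB. The immune and stromal sums were lower in Hx1R8 but small. The immune sum rested on few reads, such as 87 for CD14 and 67 for CD68 over the 4 libraries. None of the 2 tested immune genes and 4 tested stromal genes passed. Single genes had groups that did not overlap in 29.8% of all tested genes. The part of these sums in the results was not tested.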

How the data were processed

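The submitters' processing notes name STAR 2.7.9 and the build hg38. The authors deposited raw counts per gene, 1 column per library, with exon coordinates and a summed exon length. No source used here gives the counting tool, annotation or strand setting. With 2 broken lines left out, 28277 genes remained. Total counts were 17259403 and 20920857 in Hx1R8 replicates 1 and 2 and 17483349 and 17352323 in Vehicle replicates 1 and 2.

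The main test was edgeR's quasi-likelihood F test (edgeR 4.0.16, R 4.3.3), two-sided, with group as the only term. Low counts were filtered by filterByExpr, scaling used TMM, and p-values were adjusted by Benjamini-Hochberg over 14482 genes. CPM was scaled by TMM factors. TPM used the listed exon length. SE and 95% intervals came from the fit. The test was checked on counts simulated from the means and fitted dispersions of these data, which does not check those dispersions. DESeq2 1.42.0 and limma-voom (limma 3.58.1) were alternatives. No library was a copy of another (chi-square per gene 1.45 to 2.81). The largest value was between the 2 Vehicle replicates, and the smallest between Hx1R8 replicate 1 and Vehicle replicate 1.

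The 9 genes and the lists were chosen with earlier results of these data known. The text names, of each list, genes among the 4 with the highest mean TPM, the gene with the smallest unadjusted p, the relatives of the 9 genes, and POU2F3, REST, SRRM4, TP63, KRT5, KRT6A and SOX2. PCSK1, PCSK2, PTPRN, DLL3, DDX24, FAT2 and genes named for 0 reads were chosen after the values were seen. A gene that this rule also names is not reported here. Besides the shared order of libraries in INSM1, SCG2 and CHGA, no gene was named for a pattern like that of another. For a correlation 4 libraries are too few.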

Additional observations from a re-analysis of the deposited data

How the results depend on the processing

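No neuroendocrine gene was called under any of 12 alternatives: 8 that kept all libraries (median-ratio factors, upper-quartile factors, library totals alone, all genes kept, genes at 1 CPM in 2 libraries kept, DESeq2, limma-voom and the replicate block) and 4 that left out 1 library each, the lone sample being assumed to vary like the other group. CHGA did not pass the filter of 1 CPM in 2 libraries and has no value there. Of 95 recomputed log2 fold changes 2 changed sign, both without a call, for SYP (-0.13 to 0.15 with 1 library left out) and ENO2 (-0.116 to 0.0295). The range with 1 library left out was 0.08 to 0.53 for CHGA, 0.12 to 0.38 for SCG2 and 0.08 to 0.23 for INSM1.

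Over all genes, DESeq2 called 1 higher, and the cause was not tested. With 1 library left out, 2 to 41 genes were higher, 1 to 38 lower, and 0 to 2 of the 8 housekeeping genes were called (2 without Vehicle replicate 1). Under the replicate block 0 neuroendocrine genes passed, and over all genes it gave 2 higher and 1 lower. The libraries share only a number, and deviations of same-numbered libraries correlated at 0.03 across genes. CHGA went to 0.985 TPM with the GENCODE principal transcript length and 1.12 TPM with chromosomal bases, against 0.578 TPM over all libraries, both alternatives added after the data were seen. Depth limits CHGA, NEUROD1 and other genes of few reads.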
